A study of Mus musculus with 45 samples.

Results

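The 53 genes described here were higher after 7 d of EHMT2 degradation in mouse embryonic stem cells (mESCs), while at 24 h they still lay near the level of untreated cells. They were chosen by the authors' group means in the bulk time course, out of 55401 listed genes, with 1 added to every mean before a ratio was taken. A member had a dTAG to DMSO ratio of at least 2 at 7 d, a ratio between 0.8 and 1/0.8 at 24 h, and a dTAG mean of at least 50 normalized counts at 7 d. Genes whose names begin with Prame, Obox, Rhox, Magea, Xlr, Olfr, Col, Pcdh, Hist, Platr or Zfp9 were left out, which removed 6 of 59. Since these values chose the members, the time course is given as a description, and the washout, sorted-cell and Dppa4 experiments carry the comparisons.

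The EHMT2-dTAG-mcherry mESCs (strain BL6/129) carry a degron on endogenous EHMT2, so that the degrader dTAG-13 removes the protein, and they were grown on a layer of feeder fibroblasts. In the time course, 3 such clones received DMSO or dTAG-13 for 24 h or 7 d. In the washout experiment the same 3 clones received DMSO or dTAG-13 for 15 d, or were treated for 7 d and then kept for 8 d with the degrader washed out (Recovery). For the sorted cells, an EHMT2-dTAG line with a MERVL-GFP reporter received DMSO or dTAG-13 for 72 h and was parted into GFP-negative mESCs and GFP-positive 2-cell-like cells (2CLC), with 3 libraries per group. In the Dppa4 experiment, wild-type WTJ1 mESCs (WT) and DPPA4KO mESCs, made with CRISPR/Cas9, were treated for 48 h with DMSO or with UNC0638, an inhibitor of the enzyme activity of EHMT1 and EHMT2. Each of its 4 groups held 3 clones. The first 3 experiments were available as 1 mean per group, without an error or a replicate check, and their depth is unknown. The Dppa4 experiment was available per library, at 8399885 to 12710949 reads in genes. Ehmt2 mRNA, which the degrader does not act on, had means of 622 in DMSO and 583 in dTAG at 7 d and checks nothing here. Dppa4 mRNA was 830 ± 115 normalized counts (SD, n = 3) in WT DMSO and 0 in all DPPA4KO libraries.

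EHMT2, also called G9a, forms a heterodimer with EHMT1 that dimethylates lysine 9 of histone H3 (H3K9me2), a mark of silent chromatin. In mESC cultures a few cells pass through a state that resembles the 2-cell embryo, with Dux, Zscan4 genes and the retroviral element MERVL switched on. DPPA2 and DPPA4 act upstream of Dux in that switch. The late-raised members span TGF-beta and FGF signalling, through which mESCs receive cues for self-renewal and differentiation, and matrix and cytoskeletal genes that are typical of mesenchymal cells.

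The upstream sequences of 4 members are printed because these genes are named in the results that follow. Klhl13 was 2-fold higher at 15 d and in sorted mESCs, and was called lower in DPPA4KO cells and higher there with UNC0638. Serp2 was higher at 15 d and in both sorted populations. Pnma5 was the only member 2-fold higher after washout, a share close to that of all expressed genes. Fgfbp1 had the second highest ratio at 7 d. Each run holds the 250 bases before the RefSeq start (build GRCm38.p6, minus strand, read 5′ to 3′), with CpG dinucleotides in capitals. The regions are chrX:23365083-23365332 for Klhl13, chr14:76556917-76557166 for Serp2, chrX:73037104-73037353 for Pnma5 and chr5:43981800-43982049 for Fgfbp1.
Klhl13: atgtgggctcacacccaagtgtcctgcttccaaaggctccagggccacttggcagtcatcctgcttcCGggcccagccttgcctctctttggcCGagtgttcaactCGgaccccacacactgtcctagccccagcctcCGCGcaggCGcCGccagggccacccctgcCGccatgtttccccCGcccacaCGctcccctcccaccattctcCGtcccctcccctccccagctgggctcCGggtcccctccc
Serp2: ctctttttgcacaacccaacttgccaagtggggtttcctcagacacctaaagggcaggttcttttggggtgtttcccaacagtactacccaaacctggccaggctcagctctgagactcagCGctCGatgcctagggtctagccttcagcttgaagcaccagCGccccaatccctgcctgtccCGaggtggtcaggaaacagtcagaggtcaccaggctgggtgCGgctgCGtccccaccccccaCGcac
Pnma5: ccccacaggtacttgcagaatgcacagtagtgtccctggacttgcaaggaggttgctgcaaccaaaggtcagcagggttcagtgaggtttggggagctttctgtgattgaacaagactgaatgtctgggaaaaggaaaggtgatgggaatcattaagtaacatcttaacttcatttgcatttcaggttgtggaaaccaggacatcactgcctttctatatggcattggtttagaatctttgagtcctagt
Fgfbp1: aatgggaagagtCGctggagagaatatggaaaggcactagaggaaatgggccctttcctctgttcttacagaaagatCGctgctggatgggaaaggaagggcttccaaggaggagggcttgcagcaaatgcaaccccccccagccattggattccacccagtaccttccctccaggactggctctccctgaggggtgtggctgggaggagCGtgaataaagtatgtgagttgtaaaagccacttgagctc
The Klhl13 run held 12 CpG, that of Serp2 7 and that of Fgfbp1 3, and the Pnma5 run held 0. The ratio of observed to expected CpG was 0.48, 0.33, 0.17 and 0.00 for Klhl13, Serp2, Fgfbp1 and Pnma5.

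At 7 d the ratio of dTAG to DMSO ran from 2.01 to 11.4 with a median of 2.48, in a table where 4.02% of 17997 expressed genes (mean of at least 10) reached 2. Hand1, a trophoblast and heart transcription factor, had the highest ratio, from a DMSO mean of 6.31 to a dTAG mean of 82.1 at 7 d. Fgfbp1, a secreted carrier of FGF ligands, followed at 4.11, with means of 87.4 and 363. Ccn4, a matricellular protein of the Wnt response, had 3.98, Ddr2, a receptor tyrosine kinase for fibrillar collagen, 3.80, and Ldoc1, derived from a retrotransposon gag gene, 3.77. The other members of the 10 highest were Rbfaos at 3.65, Dcaf12l1 at 3.37, Serp2 at 3.35, Ereg at 3.27 and Krt8-ps at 3.16. By annotation the set held 45 protein-coding genes, 4 processed pseudogenes, 2 antisense RNAs, 1 processed transcript and 1 lincRNA. The heat map of the 53 members shows that the 7 d column, which the rule fixed, is followed by columns of unlike pattern.

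**Figure D1:**
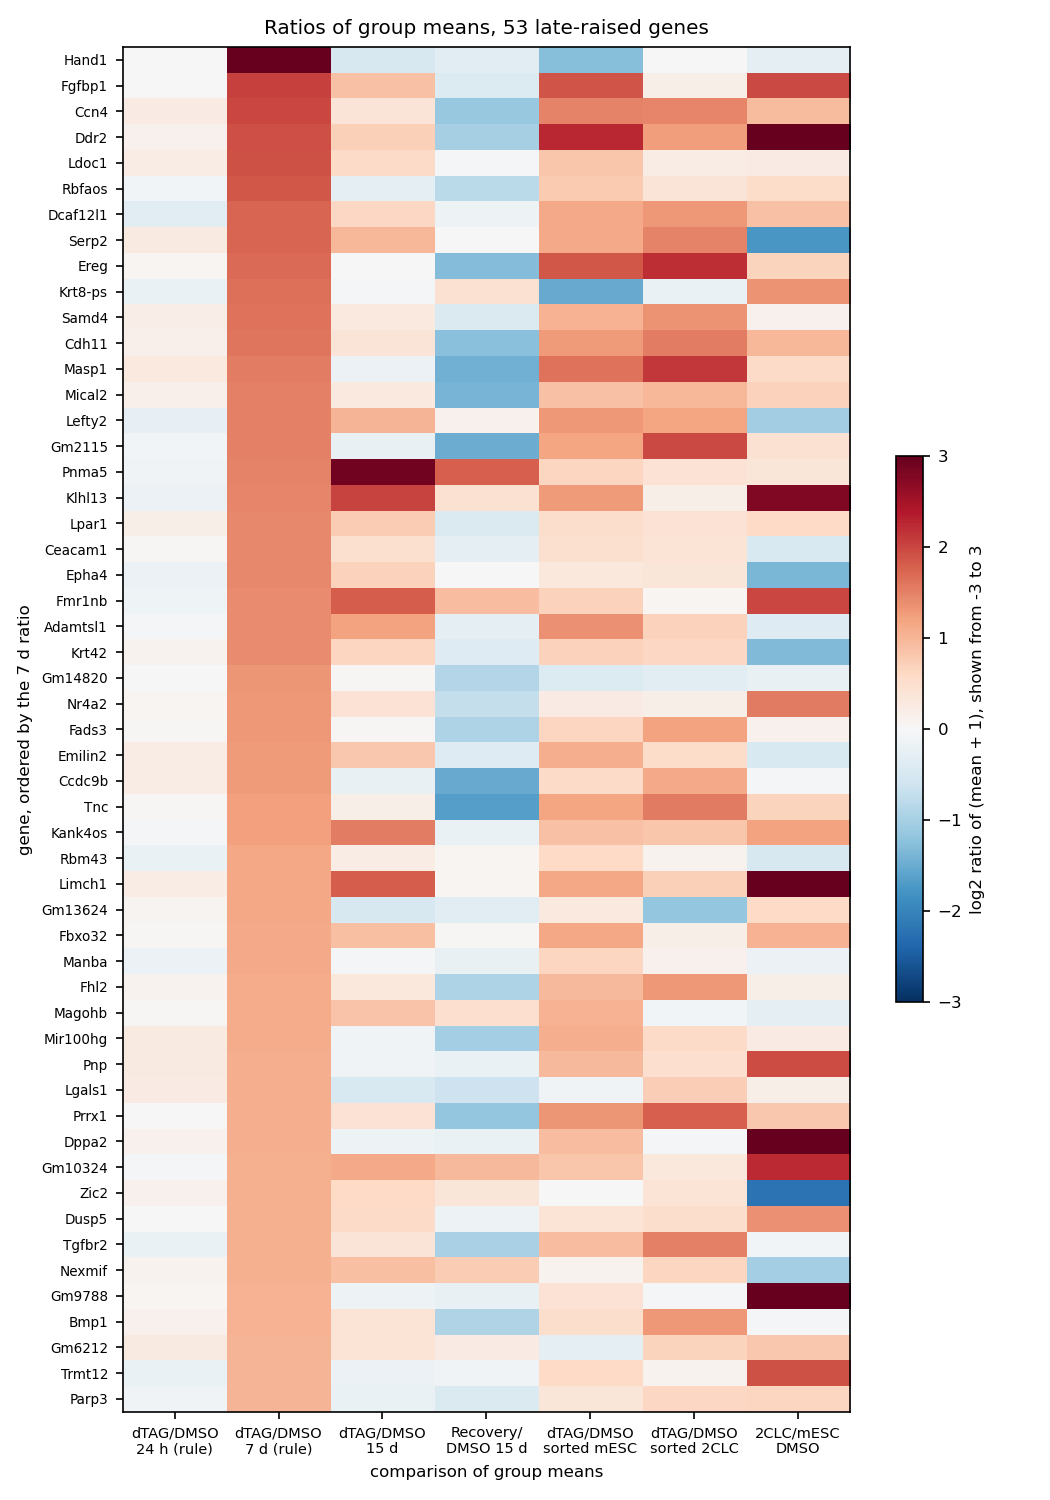
Log2 ratio of group means (with 1 added to each) for the 53 members, 1 row per gene ordered by the 7 d ratio; columns are 24 h, 7 d and 15 d of dTAG over DMSO, Recovery over DMSO 15 d, dTAG over DMSO in sorted mESCs and in sorted 2CLC, and 2CLC over mESC in DMSO. Red is higher and blue is lower, and the first 2 columns were used to choose the genes. The 15 d column is 2-fold higher in 9 genes, and the Recovery column is 2-fold lower in 10.

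The DMSO means of the members also differed between the times. In 47 of the 53 the DMSO mean at 7 d was below that at 24 h, with a median ratio of 0.729, and in 1, Fgfbp1, it was at most 0.5 of it, where 1.12% of expressed genes were. The rule used both means, the one at 7 d as a denominator, so nothing is read from these counts. Against DMSO at 24 h, the dTAG mean at 7 d was higher in every member, with a median ratio of 1.92. The lowest ratio was 1.32 (Prrx1), and 19 members reached 2. The rule used both of these means as well, so nothing is read from these ratios either. Lefty2, for example, had means of 3206 in DMSO and 2714 in dTAG at 24 h, and of 1682 and 4811 at 7 d.

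Members sat close to each limit of the rule. Parp3, Trmt12 and Gm6212 lay just inside the 7 d limit, at 2.01, 2.02 and 2.02, and Trmt11 and Gm10156 just outside at 1.99, with Tmcc3 next to the limit. At the lower 24 h limit Dcaf12l1, Lefty2 and Krt8-ps were inside at 0.808, 0.847 and 0.864, and Gm40977, Pappa and Nrp2 outside at 0.794, 0.78 and 0.77. At the upper 24 h limit Masp1, Mir100hg and Pnp were inside at 1.23, 1.21 and 1.20, and Pnp2, Ptprtos and Slc27a2 were outside at 1.26. At the level limit Ldoc1, Magohb and Adamtsl1 had dTAG means of 52.2, 53.8 and 56.0 at 7 d, while Gbp2, Pnma3 and Mgll had 49.2, 47.4 and 46.5.

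Several members encode signals and their receptors. Lefty2, a secreted antagonist of Nodal, belongs here. Tgfbr2, the type II receptor for TGF-beta, had means of 49.2 in DMSO and 103 in dTAG at 7 d, and Bmp1, a protease that matures procollagen and cleaves the BMP antagonist chordin, had 78.2 and 161. Dusp5, a nuclear phosphatase of ERK, had means of 320 and 669 at 7 d. Ereg, a ligand of the EGF receptor, had means of 23.0 and 77.4, and Lpar1, a receptor for lysophosphatidic acid, 72.6 and 198. Epha4, an ephrin receptor of axon guidance, had means of 386 and 1042.

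A second group belongs to matrix, cytoskeleton and mesenchyme. Tnc (tenascin C) had means of 274 in DMSO and 641 in dTAG at 7 d, Emilin2, an elastic fibre glycoprotein, 31.7 and 78.3, and Adamtsl1, a secreted ADAMTS-like protein, 20.4 and 56.0. Cdh11, a cadherin of mesenchymal cells, had 29.8 and 92.8, and the mesenchymal homeobox factor Prrx1 76.9 and 165. Mical2, which oxidizes actin, had 98.6 and 285, Fhl2, a LIM-domain cofactor, 31.6 and 69.9, and Limch1, an activator of non-muscle myosin, 35.6 and 80.6. Lgals1 (galectin 1) had 346 and 737. The lowest DMSO mean of these 9 genes at 7 d was 20.4 (Adamtsl1). These are means of bulk cultures on feeder fibroblasts, and which cells expressed the genes was not tested.

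Lineage and X-linked genes made up another group. Zic2, a zinc finger factor of the epiblast and neural plate, had means of 127 and 268 at 7 d, Nr4a2, an orphan nuclear receptor, 34.2 and 86.4, and Dppa2, the partner of DPPA4, 374 and 795. Krt42, a type I keratin, had 146 and 390. Of the X-linked genes, Klhl13, an adaptor of a CUL3 ubiquitin ligase, had means of 1146 and 3184, Pnma5, of the gag-derived PNMA family, 281 and 785, and Fmr1nb, a germ cell antigen, 46.2 and 125.

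Some members cannot be read apart from a close copy or a gene on the other strand. Gm9788 is 99.3% identical to Dppa2 over its length and Krt8-ps is 98.6% identical to Krt8, and reads with several best places were put at 1 of them at random. Krt8 itself had a 7 d ratio of 2.98 and missed the set at 24 h with 0.715. Gm6212 is 96.8% identical to Cd24a (7 d ratio 1.92, 24 h ratio 1.29) and Gm13624 is 96.1% identical to Rbm3 (7 d ratio 1.45). Pnp2, which matched Pnp at 97.2% over 36.8% of its length, was at 2.08 at 7 d and 1.26 at 24 h. Exons of 13 members overlapped an exon on the other strand, among them Gm14820 with Suv39h1, and exons of 4 overlapped one on the same strand. TEcounts was run at its default settings, and no strand setting beyond that is given in the sources used here.

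With degradation continued to 15 d, 9 of the 53 members (17.0%) had a ratio of dTAG to DMSO of at least 2, compared with 4% of 17316 expressed genes. These were Pnma5 at 7.41, Klhl13 at 4.07, Limch1 at 3.52, Fmr1nb at 3.51, Kank4os at 2.90, Adamtsl1 at 2.31, Gm10324 at 2.21, Lefty2 at 2.03 and Serp2 at 2.01. Pnma5 had means of 164 in DMSO and 1219 in dTAG at 15 d, Klhl13 325 and 1326, and Lefty2 5805 and 11794. The median ratio of the members was 1.32, compared with 0.983 over all expressed genes, and 37 members lay above 1. No member was at 0.5 or below, as were 0.774% of expressed genes. Hand1, which led the 7 d ratios, had means of 7.06 in DMSO and 4.79 in dTAG at 15 d. With the members also required to stand 2-fold above DMSO at 24 h, 5.26% of 19 reached a ratio of 2 at 15 d, close to the background. The 223 genes at least 2-fold higher both at 24 h and at 7 d were chosen with the same level and name limits. Of these, 181 were 2-fold higher at 15 d, with a median ratio of 20.9. Their median ratio at 7 d was already 14.8, compared with 2.48 for the members. The sets were thus at unlike distances from the limit of 2 when chosen, and their shares at 15 d are not like for like. Because these tables hold means alone, no test between the sets could be made.

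After 7 d of treatment and 8 d of washout, 1 member (1.89%) had a ratio to DMSO at 15 d of at least 2. This was Pnma5 at 3.44, and the share was close to the 1.58% of expressed genes. The next highest were Gm10324 at 1.95, Fmr1nb at 1.91, Nexmif at 1.70 and Magohb at 1.41. Pnma5 had a Recovery mean of 565, between the DMSO mean of 164 and the dTAG mean of 1219. Its spread between the clones is unknown here. In the Dppa4 experiment it had 739, 87.3 and 245 normalized counts in the WT DMSO libraries. In all, 18 members lay between 0.8 and 1/0.8 of DMSO, 8 above and 27 below that range, and the median was 0.798. Compared with dTAG at 15 d, 24 members (45.3%) were at 0.5 or below in Recovery, as were 5.41% of expressed genes. All 9 genes raised at 15 d were lower in Recovery than in dTAG, as were 49 of all 53 members. The dTAG mean at 15 d chose these 9 and enters this ratio, which favours a lower Recovery value. Of the 9, 6 were at 0.5 or below, and 5 lay between 0.8 and 1/0.8 of DMSO. Klhl13, for instance, had a Recovery mean of 444 against 1326 in dTAG and 325 in DMSO, and Limch1 30.1 against 105 and 29.0. Both ratios in the plot of continued degradation and washout share the DMSO mean at 15 d.

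**Figure D2:**
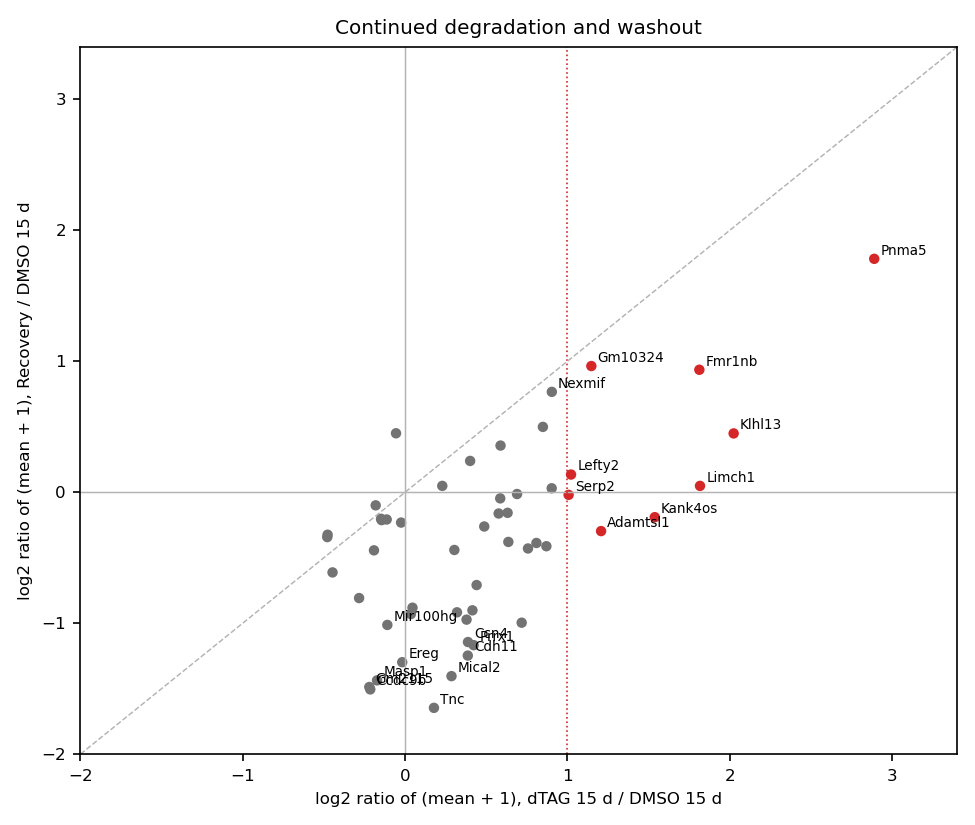
Each point is 1 of the 53 members; the horizontal axis is the log2 ratio of dTAG to DMSO at 15 d and the vertical axis the log2 ratio of Recovery to DMSO at 15 d (1 added to each mean). The 9 genes with a 15 d ratio of at least 2 are red and the dashed line marks equal ratios. Pnma5 stands alone at the upper right, at ratios of 7.41 and 3.44, and most points lie below the dashed line.

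After washout 10 members were at 0.5 or less of DMSO, as were 1.11% of expressed genes. These were Tnc at 0.319, Ccdc9b at 0.352, Gm2115 at 0.357, Masp1 at 0.369, Mical2 at 0.378, Ereg at 0.407, Cdh11 at 0.421, Prrx1 at 0.445, Ccn4 at 0.452 and Mir100hg at 0.495. Tnc had means of 644 in DMSO, 728 in dTAG and 205 in Recovery. Fibroblast genes moved with this pattern: of 18 listed markers of feeder fibroblasts, 10 were at 0.5 or less in Recovery compared with DMSO, and Col1a1, the main chain of type I collagen, went from 520 to 136. Without Sfrp1, which mESCs also express (4506 in sorted DMSO mESCs), the markers summed to 6378 in DMSO, 8163 in dTAG and 2657 in Recovery, and with it to 9918, 11653 and 6696. At 7 d 2 of the 18 markers were 2-fold higher in dTAG than in DMSO, and at 15 d 0 were. The defining markers Fap and Lum were at or near 0 in every group. At 7 d the sum without Sfrp1 was 4303 in DMSO and 6780 in dTAG (7887 and 9767 with it), and at 24 h, where the members were level by rule, it was 4793 and 6448 (9562 and 10368 with it). The part of feeder cells in these ratios was not tested, and in bulk samples fewer cells of a type and less RNA per cell cannot be told apart.

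In sorted GFP-negative mESCs after 72 h, 20 members (37.7%) were at least 2-fold higher in dTAG than in DMSO, compared with 7.63% of 17331 expressed genes. The highest ratios were those of Ddr2 at 4.78, Fgfbp1 at 3.71, Ereg at 3.62, Masp1, a protease of the lectin complement pathway, at 3.12 and Ccn4 at 2.81. Ddr2 went from a mean of 32.6 in DMSO to 160 in dTAG, and Limch1 from 31.9 to 72.2, while Klhl13 had a ratio of 2.43. The median ratio of the members was 1.77, compared with 1.02 over all expressed genes. In the opposite direction, Krt8-ps (72.1 to 24.6) and Hand1 (10.4 to 3.69) were at 0.5 or below, compared with 1.92% of expressed genes. With 10 rather than 1 added to each mean, 18.9% of the members reached 2-fold, a change that weighs most on genes with low means. The share of expressed genes was not recomputed with 10 added, so the 7.63% is not its background.

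In sorted 2CLC, 18 members (34.0%) were at least 2-fold higher in dTAG, compared with 4.75% of expressed genes, and the median ratio was 1.49. Ereg led at 4.63, followed by Masp1 at 4.37, Gm2115 at 3.94, Prrx1 at 3.44 and Tnc at 2.94. Only Gm13624, with means of 1.93 and 0.312, was at 0.5 or below, where 2.11% of expressed genes were. Both populations were sorted from the same treated cultures, so their ratios share no library but share the cultures. In both, 12 members (22.6%) were 2-fold higher, compared with 3.1% of expressed genes: Ccn4, Cdh11, Dcaf12l1, Ddr2, Ereg, Gm2115, Lefty2, Masp1, Prrx1, Samd4, Serp2 and Tnc. Of these, Lefty2 and Serp2 were also 2-fold higher at 15 d. Lefty2 had means of 2153 and 5293 in mESCs and of 1042 and 2352 in 2CLC, and Serp2, a small protein of the endoplasmic reticulum, had 36.7 and 82.3 in mESCs and 10.3 and 30.6 in 2CLC. Klhl13 was close to level in 2CLC (855 and 963).

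The feeder markers also differed in the sorted cells. Their sum without Sfrp1 was 1443 in DMSO and 2635 in dTAG in the mESC gate, and 2535 and 5950 in the 2CLC gate, and 7 and 10 of the 18 markers were 2-fold higher in dTAG. With Sfrp1 the sum was 5949 and 5991 in the mESC gate, nearly level, and 4123 and 7379 in the 2CLC gate. Of the 12 members higher in both gates, 11 were below DMSO in Recovery, as were 40 of all 53 members. Of the 10 members at 0.5 or less after washout, 7 were among the 12. The 7 were Ccn4, Ereg, Cdh11, Masp1, Gm2115, Tnc and Prrx1. The MERVL-GFP reporter was introduced into the mESC line, and carry-over of fibroblasts into either gate was not examined here. Without Sfrp1 the marker sum was higher in the 2CLC gate than in the mESC gate in both treatments. With Sfrp1 it was lower in the 2CLC gate in DMSO and higher there in dTAG. Whether transcripts of the markers and of these members came from mESCs, 2CLC or fibroblasts was not tested.

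**Figure D3:**
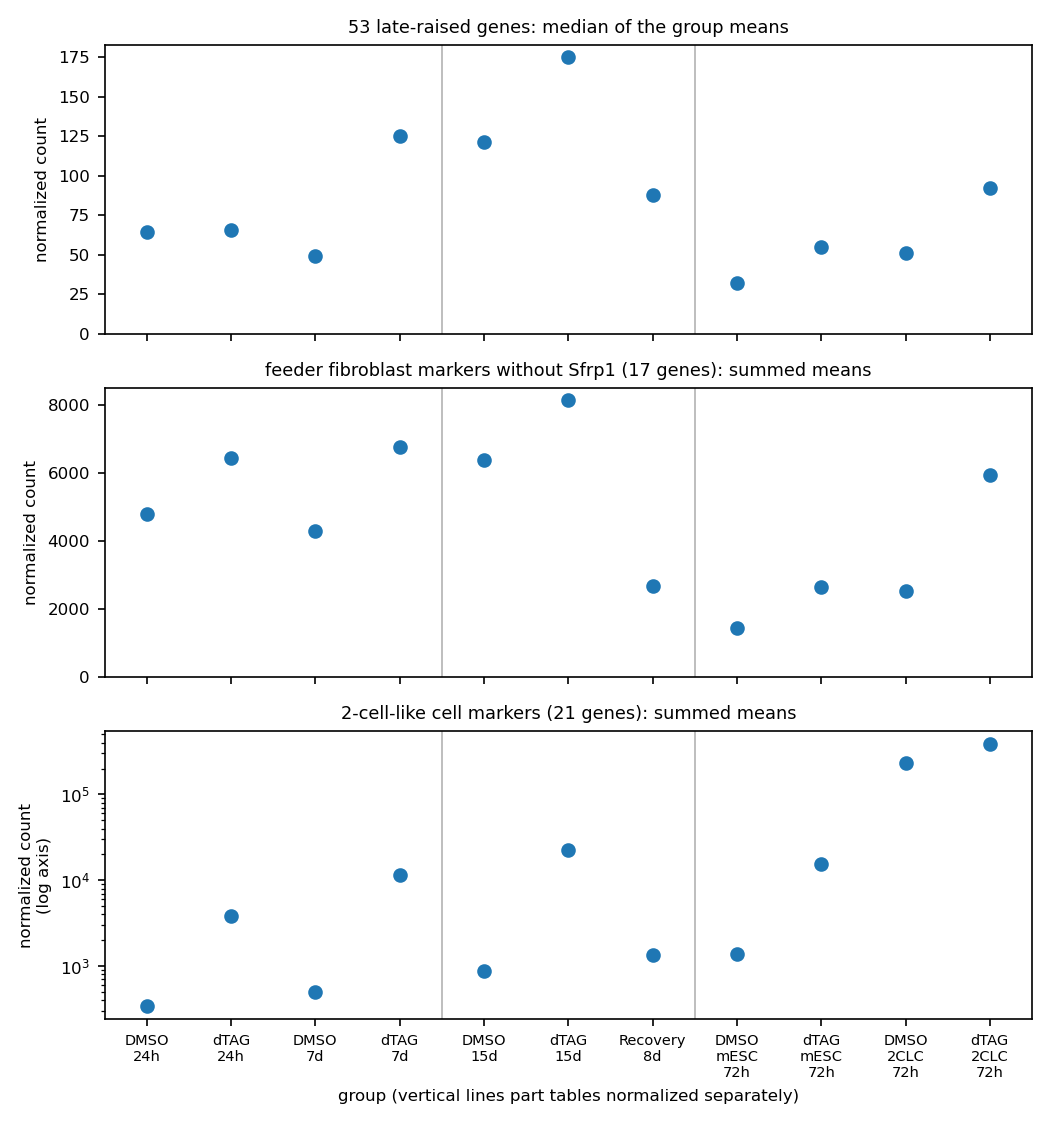
Normalized counts by group: the median over the 53 members (upper panel), the summed means of 17 feeder fibroblast markers (middle panel) and of 21 2-cell-like markers (lower panel, log axis). Vertical lines part the time course, washout and sorted tables, which were normalized separately. The member median was 49.2 in DMSO and 125 in dTAG at 7 d, and the 2-cell-like sum was 234333 in DMSO 2CLC against 1373 in DMSO mESCs.

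Without degradation, 15 members (28.3%) were at least 2-fold higher in 2CLC than in mESCs, compared with 15.4% of expressed genes, and 6 (11.3%) were at most 0.5, compared with 8.76%. Limch1 stood furthest, with a mean of 31.9 in mESCs and 1141 in 2CLC, a ratio of 34.8. Next came Ddr2, with means of 32.6 and 537, then Dppa2 at 9.28, its near copy Gm9788 at 8.77 and Klhl13 at 6.90. The lowest were Zic2 at 0.217, Serp2 at 0.299, Epha4 at 0.384, Krt42 at 0.397 and Lefty2 at 0.484, and Nexmif was at 0.493. Under dTAG, 23 members were 2-fold higher in 2CLC, compared with 13.9% of expressed genes, and 8 (15.1%) were at most 0.5, compared with 6.95%. The same direction held in both treatments for 13 of the higher and 5 of the lower genes. The median ratio in DMSO was 1.501, compared with 0.981 over all expressed genes. For the 223 genes raised at both times it was 126.5, and 174 of them were 2-fold higher in 2CLC.

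**Figure D4:**
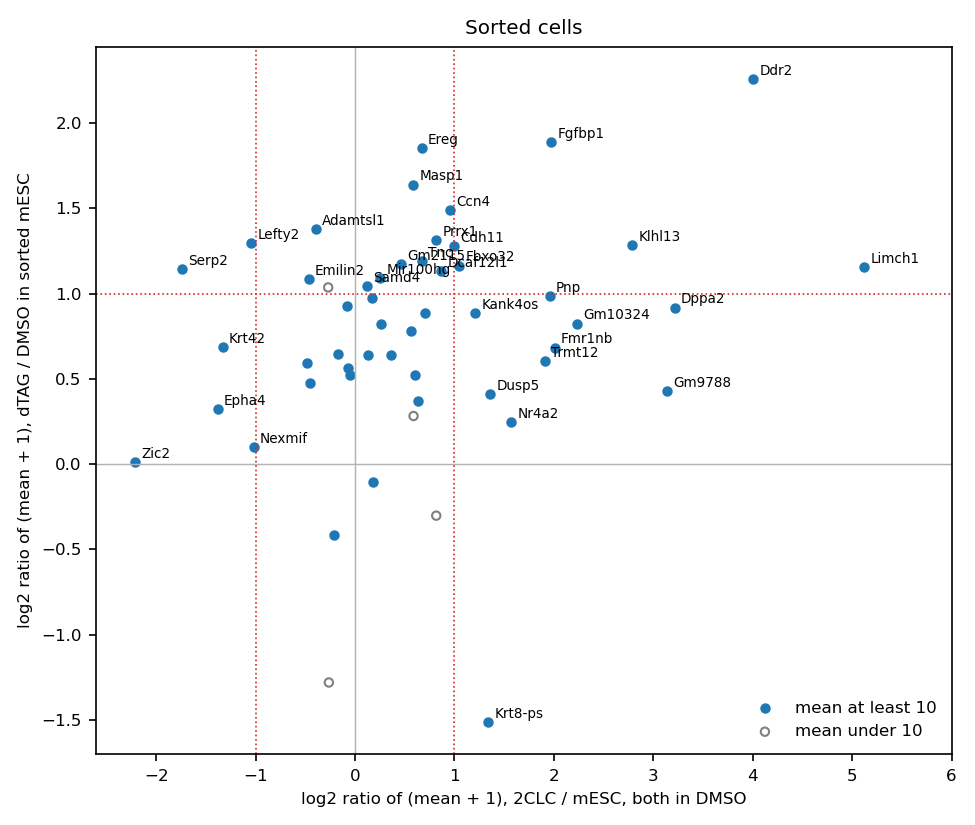
Each point is 1 of the 53 members; the horizontal axis is the log2 ratio of 2CLC to mESC in DMSO and the vertical axis the log2 ratio of dTAG to DMSO in sorted mESCs, and both ratios share the DMSO mESC mean. Filled points have a mean of at least 10 over the sorted groups (49 genes), and dotted lines mark 2-fold. Limch1, Ddr2 and Klhl13 lie at the upper right, and Zic2 and Serp2 at the left.

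The 2-cell-like markers were higher with degradation in the bulk cultures too. Their sum was 502 in DMSO and 11491 in dTAG at 7 d, 869, 22446 and 1364 in DMSO, dTAG and Recovery of the washout experiment, and 1373 and 15647 in the mESC gate. All 21 were 2-fold higher at 7 d and at 15 d, and none of them is a member. The part that a larger share of 2CLC had in the members' bulk ratios was not tested.

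The Dppa4 experiment gave values per library and a test. The fit was limma on log2(normalized count + 1) over 17258 genes, and a gene was called at a Benjamini-Hochberg adjusted p under 0.05 with an absolute log2 fold change of at least 1. Of the 53 members, 50 had enough reads to be tested. Magohb, Gm13624 and Gm6212 did not. Magohb, a subunit of the exon junction complex, had 3.81 ± 2.35 normalized counts in WT DMSO and 0 in all 6 DPPA4KO libraries.

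More members were lower than higher in DPPA4KO cells compared with WT cells. In DMSO, 8 of the 50 were called lower in DPPA4KO, compared with 3.1% of all genes tested, and 2 were called higher, compared with 1.33%. The median log2 fold change of the members was -0.77, compared with -0.03 over all genes tested, and 39 of 50 were negative. At an unadjusted p under 0.05, 24 were lower and 5 higher, where 13.7% of all genes tested were lower and 10.4% higher. Of the 164 tested genes raised at both 24 h and 7 d, 53 were called lower, with a median of -2.20.

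Klhl13 had 598, 1063 and 657 normalized counts in the WT DMSO libraries and 40.1, 40.8 and 45.3 in DPPA4KO DMSO. Each DPPA4KO library lay far below every WT library, and the log2 fold change was -4.12 ± 0.27 (SE, limma, adjusted p = 2.4e-07). Hand1 had 17.5, 102 and 119 in WT DMSO and 0, 2.04 and 0 in DPPA4KO, or 234 reads against 2. WT replicate 1 lay well below the other WT libraries, and the fitted log2 fold change of -5.40 ± 0.97 (limma, adjusted p = 0.0045) depends on the count added before the logarithm. Fgfbp1 had 150, 298 and 273 in WT and 75.3, 33.6 and 61.5 in DPPA4KO, without overlap, with a log2 fold change of -2.07 ± 0.41 (limma, adjusted p = 0.0079).

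The other members called lower were Ccn4, Samd4, Prrx1, Lgals1 and Gm2115. Ccn4 had 154, 156 and 105 in WT DMSO and 32.3, 25.5 and 91.7 in DPPA4KO DMSO, a log2 fold change of -1.66 ± 0.38 (limma, adjusted p = 0.017). Samd4, an RNA-binding repressor of translation, had 83.8, 102 and 57.7 in WT and 33.3, 26.5 and 27.9 in DPPA4KO (-1.41 ± 0.33). Prrx1 had 186, 285 and 183 in WT and 62.6, 93.7 and 114 in DPPA4KO (-1.28 ± 0.30). In these genes no DPPA4KO library reached the lowest WT library. Lgals1 had 269, 504 and 591 against 117, 181 and 204 (-1.40 ± 0.34), and Gm2115 had 290, 273 and 152 against 59.7, 104 and 117 (-1.34 ± 0.32). The adjusted p of these last 4 genes in limma ran from 0.018 to 0.022. The feeder markers without Sfrp1 summed to between 6109 and 8401 in WT DMSO and between 3466 and 4317 in DPPA4KO DMSO (with it, 6548 to 8840 and 4719 to 5461), and 1 of 15 tested was called lower. The part of feeder cells in these 5 calls was not tested. The 2-cell-like markers summed to between 165 and 2698 in WT DMSO and between 0 and 6 in DPPA4KO DMSO.

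Epha4 and Kank4os went the other way. Epha4 had 496, 274 and 296 in WT DMSO and 885, 695 and 1018 in DPPA4KO DMSO, a log2 fold change of 1.32 ± 0.30 (limma, adjusted p = 0.016). The antisense RNA Kank4os had 1.16, 0 and 6.99 in WT and 15.7, 37.7 and 32.5 in DPPA4KO, or 9 reads against 81 (3.43 ± 0.84, limma, adjusted p = 0.023). Neither gene overlapped between the genotypes. Dppa2 itself had 808.6 ± 44.2 in WT DMSO and 1148 ± 122 in DPPA4KO DMSO, with a log2 fold change of 0.50 ± 0.16 (limma, adjusted p = 0.069) that was not called.

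These calls leaned on single libraries. Without WT DMSO replicate 2, 2 members were still called, Hand1 and Klhl13, while the count over all genes went from 765 to 286. Without DPPA4KO DMSO replicate 1, 5 were called, namely Fgfbp1, Hand1, Kank4os, Klhl13 and Samd4. Klhl13 and Hand1 were called in all 19 settings tried.

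**Figure D5:**
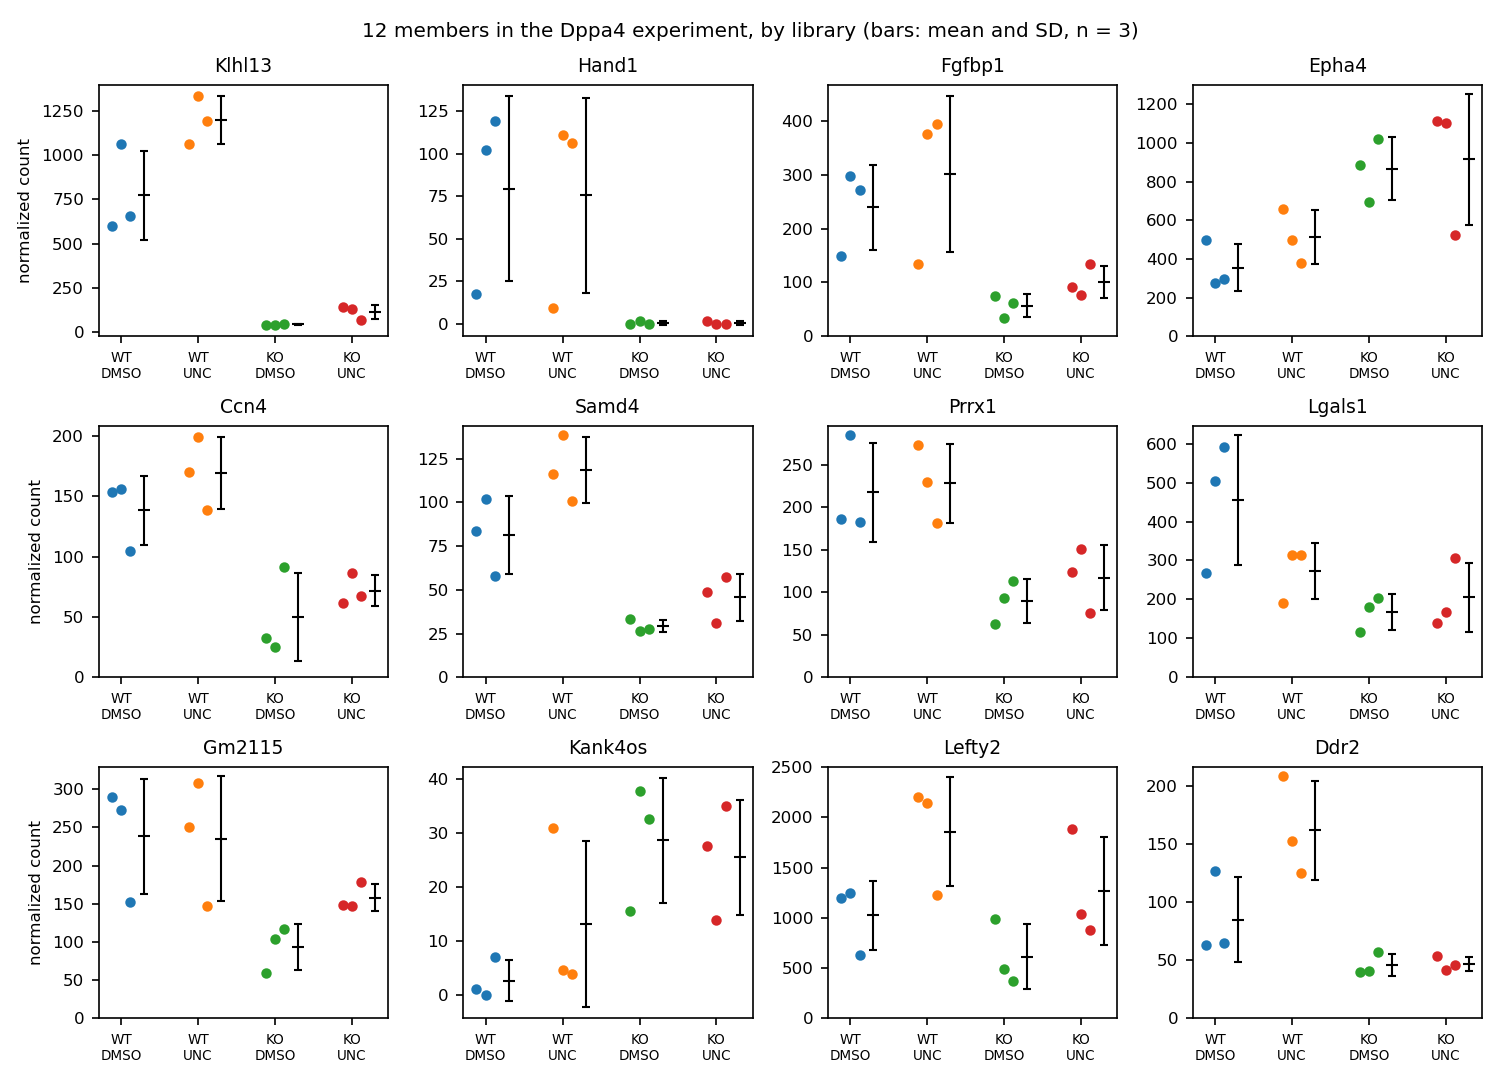
Normalized counts of 12 members in the 12 libraries of the Dppa4 experiment, 1 point per library, with the mean and SD of each group (n = 3) as a bar; KO is DPPA4KO and UNC is UNC0638. Klhl13, Hand1 and Fgfbp1 are lower in every KO DMSO library than in every WT DMSO library, Epha4 and Kank4os are higher, and Lefty2 has higher group means with UNC0638 in both genotypes.

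Inhibition of EHMT1 and EHMT2 by UNC0638 for 48 h passed the test for 1 member in DPPA4KO cells and for none in WT cells. In WT cells none of the 50 was called in either direction, where 0% of all genes tested were called higher and 0% lower by limma, and edgeR also called none. DESeq2 called 13 genes, with no member among them. At an unadjusted p under 0.05, Ddr2, Klhl13, Lefty2 and Kank4os were higher and Gm9788 was lower, where 5.215% of all genes tested were higher and 3.5% lower, and the smallest adjusted p of a member was 0.56 in limma. Klhl13 had 598, 1063 and 657 in DMSO and 1063, 1337 and 1197 with UNC0638, a log2 difference of 0.67 ± 0.27 (SE, limma, adjusted p = 0.56). Lefty2 had 1193, 1251 and 628 in DMSO and 2198, 2141 and 1230 with UNC0638, a log2 difference of 0.88 with a 95% interval from 0.11 to 1.64. Ddr2 had 62.8, 127 and 64.7 in DMSO and 208, 152 and 125 with UNC0638, a difference of 0.97 with an interval from 0.28 to 1.66. For Lefty2 and Ddr2 the groups overlapped. Between WT libraries of the same number, Klhl13, Lefty2 and Ddr2 were each higher with UNC0638 in 3 of 3. Kank4os was lower with UNC0638 in replicate 3, at 6.99 in DMSO and 3.99 with UNC0638. These genes were picked for a higher value with UNC0638, and no share of all genes was taken, so nothing is read from these pairs. With the replicate number as a block the difference for Lefty2 was 0.88 ± 0.13 (SE, limma, adjusted p = 0.21), which was not called either. The median over the members was 0.20, compared with 0.00 for all genes tested.

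In DPPA4KO cells 1 member was called, Klhl13, where 0.411% of all genes tested were called higher and 0.0521% lower. It went from 40.1, 40.8 and 45.3 in DMSO to 138, 129 and 67.2 with UNC0638, and the groups did not overlap. The log2 fold change was 1.32 ± 0.27 (limma, adjusted p = 0.04), and its adjusted p ran from 0.0012 to 0.19 over 19 settings. It was called in 5 of the 12 fits that left out 1 library, and edgeR did not call it. Even with UNC0638, each DPPA4KO library held fewer Klhl13 counts than any WT library. Lefty2 had 984, 486 and 373 in DMSO and 1879, 1042 and 878 with UNC0638 (1.09 ± 0.36, limma, adjusted p = 0.16), and Lpar1 had 78.3, 106 and 49.9 against 146, 230 and 137 (1.15 ± 0.35, limma, adjusted p = 0.13). Zic2 had 523, 360 and 330 against 280, 195 and 155 (-0.95 ± 0.30, limma, adjusted p = 0.14). These differences missed the threshold in the fit without a replicate block.

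Whether UNC0638 acted differently in the 2 genotypes was tested with an interaction term. None of the 50 members was called, where 0% of all genes tested were called higher and 0% lower, none had an unadjusted p under 0.05, and edgeR and DESeq2 called no member either. The smallest adjusted p of a member was 0.78 in limma. For Klhl13 the difference between the genotypes was 0.64 with a 95% interval from -0.17 to 1.45, and for Lefty2 0.21, from -0.86 to 1.29.

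Pathway lists set the members among their neighbours, in tables where 4.02% of expressed genes were 2-fold higher at 7 d, 4% at 15 d, and 1.11% were 2-fold lower in Recovery than in DMSO. These shares are over genes with a mean of at least 10. The pathway and cell type lists were counted over all their genes, low ones included. The list counts and the shares are therefore of unlike gene sets, and no enrichment is read from them. Of 49 genes of the TGF-beta, activin and BMP pathway, 11 were 2-fold higher at 7 d and 5 at 15 d, and 3 are members (Bmp1, Lefty2, Tgfbr2). The 48 matrix genes other than collagens had 13 at 7 d and 4 at 15 d, with Adamtsl1, Ccn4, Emilin2 and Tnc as members, and 9 of the 48 were 2-fold lower in Recovery than in DMSO. The 27 FGF genes had 6 at 7 d and 4 at 15 d (members Dusp5 and Fgfbp1), and the 48 guidance genes 11 and 5 (member Epha4). The 34 actin and smooth muscle genes had 9 at 7 d and 1 at 15 d (member Fhl2), the 27 keratins and claudins 7 and 2 (member Krt42), and the 44 germ cell genes 15 and 14 (member Fmr1nb). No member is on the lists of interferon-stimulated genes (15 of 36 at 7 d, 9 at 15 d), imprinted genes (7 of 37, 3), heart and skeletal muscle genes (8 of 24, 4) or YAP and TEAD targets (1 of 20, 1). Of the 20 trophoblast markers, 9 were 2-fold higher at 7 d and 2 at 15 d (members Hand1 and Ldoc1).

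The remaining cell type lists check the label of the cells. Of 16 naive pluripotency markers, 0 were 2-fold higher at 7 d and 0 at 15 d, and none is a member. Their summed means were 67984 in DMSO and 66827 in dTAG at 7 d. The 14 epiblast markers had 1 at 7 d and 2 at 15 d (member Zic2), and the 14 primitive endoderm markers 0 and 4.

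In DPPA4KO DMSO compared with WT DMSO, where limma called 3.1% of all genes tested lower, each list was counted over its tested genes. Called lower were 9 of 16 2-cell-like markers (median log2 fold change -4.98), 10 of 26 germ cell genes (-1.21), 5 of 19 YAP and TEAD targets (-0.35), 3 of 12 heart and skeletal muscle genes (0.15), 7 of 33 actin and smooth muscle genes (-0.41) and 5 of 25 FGF genes (0.01). Next came 2 of 10 epiblast markers (-0.20), 8 of 46 matrix genes (-0.72), 3 of 18 keratins and claudins (-1.11), 3 of 22 interferon-stimulated genes (-0.28), 5 of 46 TGF-beta, activin and BMP genes (-0.19) and 3 of 40 guidance genes (-0.19). The counts were 1 of 15 for both the trophoblast (-1.20) and the feeder markers (-0.85), 1 of 16 for naive markers (0.52), 2 of 33 for imprinted genes (-0.27) and 0 of 10 for primitive endoderm markers (-0.47).

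All 53 members were placed on the mouse genome (GRCm38). They lay on 18 chromosomes, and 1 pair of neighbours was within 1 Mb, Fbxo32, a muscle ubiquitin ligase adaptor, and Trmt12, an enzyme of tRNA modification, at 657.7 kb. On the X chromosome lay 7 members (13.2%), compared with 3.97% of 17981 expressed genes and 8 of the 223 genes raised at both times (3.59%). The name limits, Rhox, Magea and Xlr among them, were applied to the members and the 223 genes but not to the expressed genes. The shares are therefore of unlike gene sets. The X-linked members were Ldoc1, Dcaf12l1, Pnma5, Klhl13, Fmr1nb, Gm14820 and Nexmif. Of the 7, 3 were 2-fold higher at 15 d, and their ratios there ran from 1.03 to 7.41. Klhl13 spans chrX:23219271-23365082 and Pnma5 chrX:73033981-73037103, both on the minus strand.

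A RefSeq promoter of 300 bases, from 250 before to 50 after the start, was found for 34 of the 53 members. Where a gene had several listed starts, the first was used, as for Klhl13 with 5. Some windows lay far from the GENCODE start of the gene, with positive distances downstream. These were Mir100hg at 49449 bases, Ddr2 at 21818, Pnp at 13221 and Gm10324 at -6094. The median GC content of the 34 was 57.5%, compared with 52.7% over 27025 promoters, and the median ratio of observed to expected CpG was 0.566, compared with 0.389. That ratio reached 0.6 in 14 members (41.2%) and in 36.5% of all promoters, and its median was 0.279 in 100 promoters of genes raised at both times. The 4 printed runs, at 0.00 to 0.48, lay below 0.6. An E-box (CACGTG) was in 2 member promoters (5.88%, compared with 7.24% of all), a TEAD motif (CATTCC) in 4 (11.8%, compared with 14.6%), and a CArG box in 2 (5.88%, compared with 1.57%), on either strand. An AP-1 motif (TGANTCA) was in 0, compared with 7.93% of all. A match describes letters in this window and not a bound site.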

How the data were processed

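RNA was sequenced in 45 libraries of 15 groups (3 per group). Per the paper's methods and the submitters' processing notes, the authors trimmed reads (Trim Galore 0.6.7), aligned them to mm10 (STAR 2.7.10, multimapping reads at 1 random best place, no introns), counted GENCODE genes and repeats with TEcounts and divided counts by DESeq2 1.34.0 size factors. The deposited signal values are these normalized counts, as group means for 11 groups and per library for the Dppa4 experiment. Each table was normalized separately over genes and repeats. Tables of the authors' own fold changes, p-values and gene classes, and the repeat tables, were not used.

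Ratios were taken as (mean + 1)/(mean + 1), over genes with a mean of at least 10 as background. No replicate error can be given for them. In the Dppa4 experiment every value was a whole multiple of 1 read (100% within a relative tolerance of 1e-06), at 8399885 to 12710949 gene reads per library. limma 3.58.1 (R 4.3.3, trend, no covariate, 4 group means) was fitted to log2(normalized count + 1) over 17258 genes kept by the filter of edgeR, with Benjamini-Hochberg adjustment within each comparison. The normalized counts as deposited are not raw counts, so edgeR 4.0.16 and DESeq2 1.42.0 on the recovered reads were alternatives. Labels name separate clones for the Dppa4 experiment. Same-numbered WT libraries deviated together across genes (r = 0.39, 0.14 and 0.68), so a fit with the replicate number as a block was compared. On simulated data with 200 genes changed 4-fold the fit found 98% of them for UNC0638 in WT, 98% for UNC0638 in DPPA4KO, 93.5% for DPPA4KO against WT and 85.5% for the interaction. Every simulated gene had the same spread, and the change was larger than the smallest that could be called. The simulation therefore does not give the power for smaller changes or for members with a wider spread.

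The members and all 17 gene lists were chosen with earlier results of these data known. Genes were named by rules of size: the 10 highest 7 d ratios, list members, genes called in the Dppa4 experiment, the 5 highest Recovery ratios, the 5 highest and lowest 2CLC ratios, and 3 on each side of a limit. Other members were named after their values were seen. Positions, promoters and copies came from GRCm38 annotation and RefSeq.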

Additional observations from a re-analysis of the deposited data

How the results depend on the processing

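Of the comparisons of group means, the share of members 2-fold higher in Recovery than in DMSO was 3.23% with a dTAG mean of at least 100 at 7 d, 3.57% with a 24 h ratio from 0.9 to 1.1, and 0.0% among the 19 members also 2-fold above DMSO at 24 h, a condition added after the data were seen. That added condition also gave 5.26% at 15 d and 21.1% in sorted 2CLC. Adding 10 to each mean gave 18.9% higher in sorted mESCs and 9.43% lower in 2CLC than mESC under dTAG, and the 24 h ratio from 0.9 to 1.1 gave 7.14% lower in 2CLC in DMSO. The same shift gave 13.2% higher in both sorted populations, 1.89% lower in sorted mESCs and 0.0% lower in sorted 2CLC. The last pair, which rest on 2 members and 1, were 2.04% and 0.0% with a mean of at least 10 and 10.5% and 5.26% under the added condition, and the sorted 2CLC share was 3.23% with a dTAG mean of at least 100 and 3.57% with the narrower 24 h ratio. Shares under the other settings run moved by less than 1.5 times. The shares of expressed genes were not recomputed with 10 added or with rescaled means. The shares lower at 15 d and after washout, higher in 2CLC under dTAG, lower in either sorted population and higher in both were recomputed after the data were seen, and not with rescaled means.

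In the Dppa4 experiment the number of members called for DPPA4KO against WT ran from 2 to 12 when 1 library was left out, the count for UNC0638 in DPPA4KO from 0 to 1, and the counts for UNC0638 in WT and for the interaction stayed at 0. For UNC0638 in DPPA4KO, 0 members were called without the filter on low counts and 0 by edgeR. Klhl13, the member called there, lost its call without any 1 of WT UNC0638 replicates 1, 2 and 3, DPPA4KO DMSO replicates 1, 2 and 3, or DPPA4KO UNC0638 replicate 2. The replicate block changed no call for UNC0638 in WT (0 members). It gave 4 for UNC0638 in DPPA4KO (Klhl13, Lefty2, Lpar1 and Pnma5), 13 for DPPA4KO against WT and 0 for the interaction, but same-numbered DPPA4KO libraries did not deviate together (r = 0.39, -0.23 and -0.00). For DPPA4KO against WT the block joined same-numbered libraries of different lines, whose deviations in DMSO had r = 0.14, -0.17 and 0.05. The 13 is therefore not a result of paired libraries. The causes were not tested. The group means allow no error, and low means in the sorted cells limit their ratios.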
